A study of Mus musculus with 6 samples.

Results

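The 32 genes described here encode the enzymes and helpers that build the glycosylphosphatidylinositol (GPI) anchor, attach it to proteins and remodel it on the way to the cell surface. They were given by symbol, located in the GENCODE mouse annotation (mm10) and matched by position to the transcripts assembled in each of 6 RNA-seq libraries. All 32 were among the 31347 annotated genes with enough exonic sequence of their own to be measured, and 30 of them were among the 12048 genes expressed highly enough to be tested. The cells were oligodendrocyte precursor cells (OPCs), the dividing glia that give rise to myelinating oligodendrocytes. They came from spinal cords of C57BL/6 mice at postnatal day 0.5, were pulled down with magnetic beads against the surface marker A2B5, and were grown for 16 h at 150000 cells per cm2. The medium held PDGF and CNTF at 10 ng/mL each and forskolin at 5 µM, for both genotypes. There were 3 libraries labelled Gde3 knockout (KO) and 3 labelled wild type (WT). The labels do not say which part of the gene was removed, in which cells, or how many animals gave a library, so p-values reflect only how much these libraries vary, which can be technical.

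GPI anchors hold many surface proteins, such as the CNTF receptor alpha, contactins and glypicans, in the outer leaflet of the membrane. The glycolipid is made step by step in the endoplasmic reticulum: a sugar is placed on phosphatidylinositol, its acetyl group is removed, the inositol is acylated, mannoses and ethanolamine phosphates are added, and a transamidase swaps the finished anchor for the end of a protein. Further enzymes then trim and rebuild the lipid and glycan in the endoplasmic reticulum and Golgi. GDE3, encoded by Gdpd2, is a surface enzyme that cleaves finished anchors, so the comparison asks whether the synthesis pathway was expressed differently where that enzyme had been targeted.

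A gene was measured in 2 ways, both in FPKM, fragments counted per length of transcript and per size of library. The gene value averages FPKM over all exonic bases that no other gene shares. The coding value averages it over the coding bases of the main annotated transcript, bases shared with other genes included. The files give no read counts, so depth is known only as a ratio: the coverage per FPKM of the libraries ran from 0.763 to 1 relative to the deepest. WT replicate 1 was the shallowest and the most fragmented, in which transcripts under 300 nt made up 36.8% (2.16% to 6.61% in the other 5). Gdpd2 itself had gene values of 0.667, 1.497 and 1.78 FPKM in KO and 0, 2.79 and 2.85 FPKM in WT, given here and below in the order of replicates 1 to 3. Its exons 9 and 10 were held by no fragment of any length in KO and were assembled at least in part in every WT library, over 100% and 21.9% of their bases in WT replicate 1. OPC markers were high in all libraries, with Olig1 at 356 to 518 FPKM and Sox10 at 82.3 to 217 FPKM. Among 8 tested OPC markers, 3 had higher and 5 had lower estimates in KO. Lhfpl3 (79.2 to 92.6 FPKM in KO, 101 to 128 FPKM in WT) and Ptprz1 did not overlap and were lower in KO. Libraries that did not overlap were seen for 5.07% of all genes tested. All 6 tested neuron markers had lower estimates in KO, and the libraries of Elavl4 did not overlap. Of 5 tested astrocyte markers, 3 had higher and 2 had lower estimates. Gfap, an astrocyte marker, ran from 32.1 to 401 FPKM over the 6 libraries. Of 8 tested microglia and macrophage markers 8 had higher means in KO, and C1qa, C1qb, C1qc, Tyrobp and Laptm5 did not overlap. The summed level over the 10 listed was 101 to 188 FPKM in KO and 56.7 to 78.6 FPKM in WT. P2ry12, too low to be tested, was at 0.157, 0 and 0.281 FPKM in KO and at 0 in every WT library. The part of other cell types in the values below was not tested. In bulk RNA, fewer cells of a type and less RNA per cell cannot be told apart.

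No member of the pathway passed the test of KO against WT, which does not show that their levels were equal. Of 30 members tested, 0 were called by limma at a Benjamini-Hochberg adjusted p under 0.05 on the gene value, where 0.0083% of all genes tested (1 of 12048) were called. With replicate numbers as blocks that 1 call was lost as well, and 0 genes passed. Estimates lay on both sides of 0, with 15 members higher and 15 lower in KO and a median difference of 0.0019 on the log2(FPKM + 1) scale, beside -0.0054 over all genes tested. At an unadjusted limma p under 0.05 there were 2 members, Pigp and Dpm2, where 1.63% of all genes tested had such a p. These 2 were also the members whose KO and WT libraries did not overlap, a pattern seen for 5.07% of all genes tested. On the coding value 0 of 30 members passed limma, against 0.00828% of all genes tested, and 2 had an unadjusted p under 0.05, Pigp and Dpm1, where 1.96% of all genes tested did. Pigp was the 1 member whose libraries did not overlap there, against 5.41% of all genes. Pigp and Dpm2 are therefore described below base by base.

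**Figure D1:**
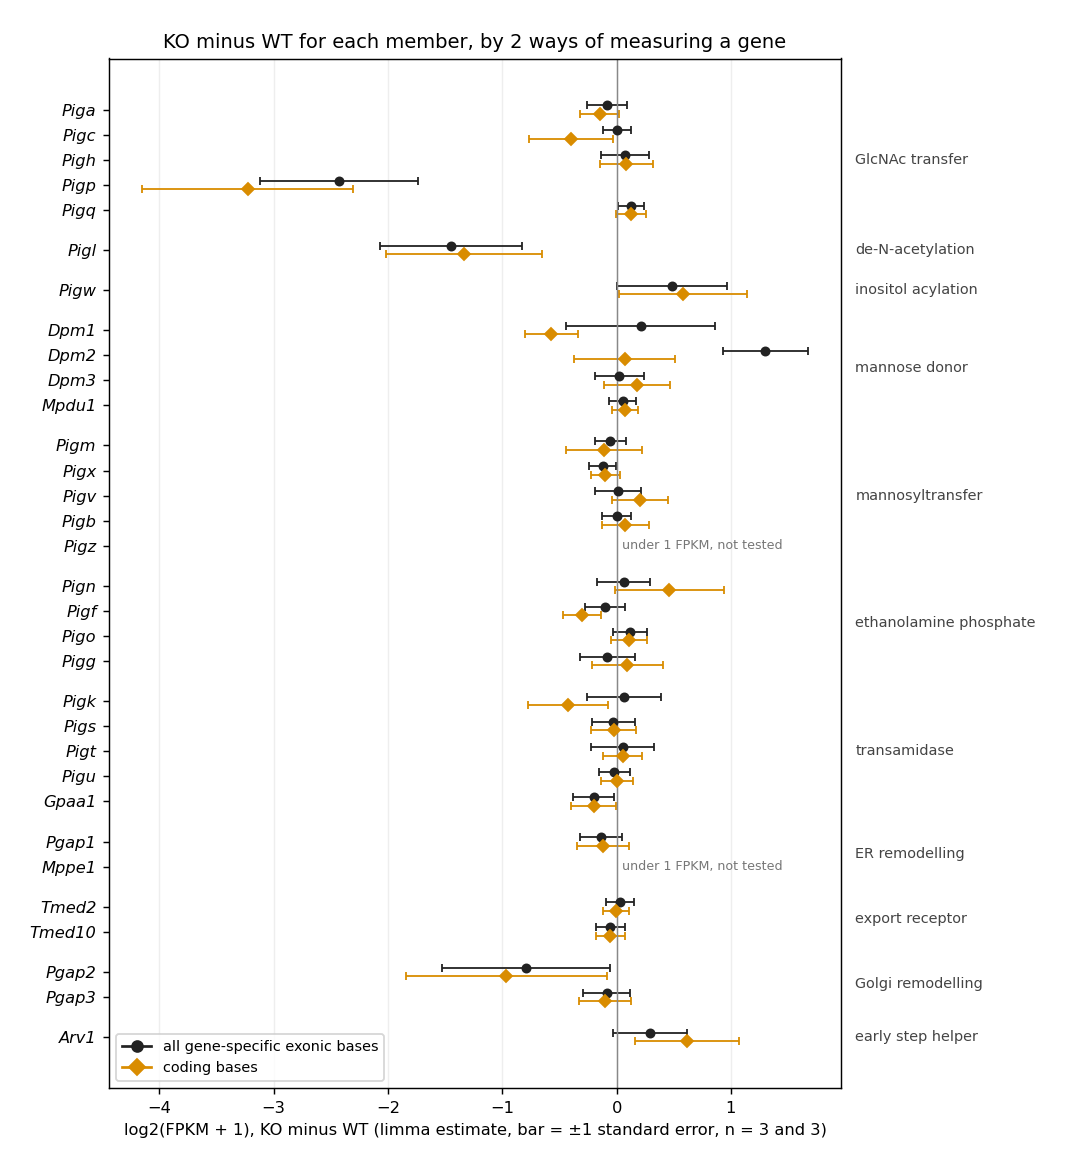
KO minus WT of each member on the log2(FPKM + 1) scale, by pathway step, as the limma estimate with bars of ±1 standard error (3 against 3 libraries); circles use all gene-specific exonic bases and diamonds the coding bases. Most members sit near 0 on both measures, Pigp lies at -2.43 and -3.23, and Dpm2 lies at 1.30 on exonic bases and 0.07 on coding bases.

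Levels differed far more between members than between genotypes. Mean coding values over the 6 libraries ran from 0.471 FPKM for Pigz to 106 FPKM for Tmed2, a ratio of 226. The median member was at 7.11 FPKM, beside 12.2 FPKM for the median tested gene. In all, 12 members were above 20 FPKM and 18 were under 10 FPKM. The 12 high members were Pigq of the first step, the 4 genes of the mannose donor, Pigx, the transamidase subunits other than Pigk, and the cargo receptors Tmed2 and Tmed10.

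**Figure D2:**
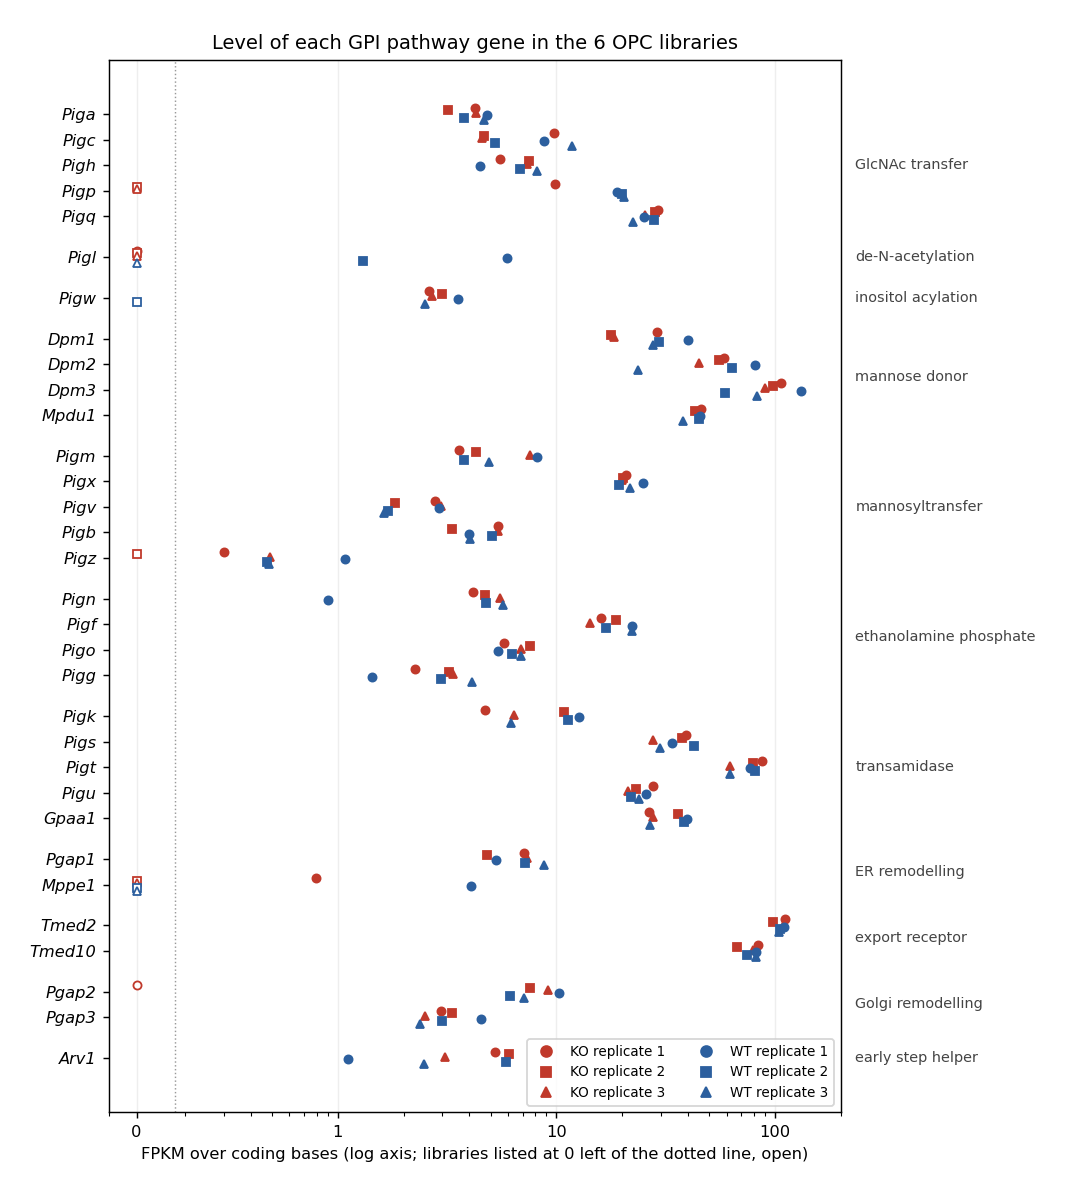
Coding value of each of the 32 members in each library (FPKM, log axis; KO red, WT blue, symbols by replicate number, open symbols for libraries listed at 0), grouped by pathway step. Tmed2, Dpm3, Tmed10 and Pigt have the highest means over the 6 libraries, and libraries listed at 0 occur in Pigp, Pigl, Pigw, Pigz, Mppe1 and Pgap2.

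The first step is carried out by a complex of Piga, the catalytic subunit that transfers N-acetylglucosamine, with Pigc, Pigh, Pigp and Pigq. Pigq, which helps hold the complex together, had the highest mean, at 29.1, 28.3 and 25.3 FPKM over coding bases in KO and 25.2, 28.1 and 22.4 FPKM in WT. Piga (chromosome X, 164419787 to 164433916, plus strand) had the lowest mean over the 6 libraries, at 4.22, 3.20 and 4.31 FPKM in KO and 4.83, 3.79 and 4.68 FPKM in WT. The 2 genotypes overlapped for both genes, and the range of Pigq over the 6 libraries lay above that of each other subunit. Pigh stood at 4.45 to 8.11 FPKM and Pigc at 4.54 to 11.8 FPKM, and their ranges overlapped. The gene value of Pigc was 3.28 to 4.07 FPKM, while its assembled share ran from 30.6% to 89.0%.

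Pigp (ENSMUSG00000022940.17, chromosome 16, 94358763 to 94371842, minus strand) encodes a small subunit of the same complex and had the lowest estimate in KO of any member. Its gene value was 4.75, 0 and 0 FPKM in KO and 8.71, 8.94 and 8.32 FPKM in WT. Its coding value was 9.87, 0 and 0 FPKM in KO and 18.9, 19.95 and 20.4 FPKM in WT. The 3 WT libraries were close together, KO replicate 1 was at 0.522 of WT replicate 1 over coding bases, and KO replicates 2 and 3 held nothing. The difference on the log2(FPKM + 1) scale was -2.43 ± 0.69 (SE, 3 against 3), with an unadjusted limma p of 0.0123 and an adjusted p of 0.9999. KO replicate 1, the KO library that held the gene, decided the call: without it limma gave -3.27 and an adjusted p of 0.00181, from 2 KO libraries both at 0. Without both libraries numbered 1, the adjusted p was 0.0123.

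Where Pigp was present its coding introns were all joined, while its last exon was assembled over 20.8% to 65.4%. In KO replicate 1 and all WT libraries, a 5-exon transcript held every coding intron, and 87.1% to 100% of the coding bases were assembled. In KO replicates 2 and 3 no fragment of any length lay over its exons on its own strand. The locus was not bare in those libraries: 3 and 4 transcripts of the opposite strand crossed Pigp exons there. Among all genes tested, 41 were at 0 in 2 libraries of 1 genotype and above 0 in the other 4, or 0.34%. In 13 genes, or 0.108%, KO replicates 2 and 3 alone were listed at 0. Of these 13, 4 stood at 8 FPKM or more in every WT library, namely Pigp, Cbx3, Thyn1 and Uqcr10. That limit lies just under the lowest WT gene value of Pigp itself, 8.32 FPKM. The files hold no counts, so a failed assembly and missing RNA cannot be told apart behind a listed 0.

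The steps that follow rest on a single enzyme each, and both genes were listed at 0 in some libraries. Pigl, the de-N-acetylase of the second step (chromosome 11, 62458460 to 62514417, plus strand), was listed at 0 in all 3 KO libraries and at 4.18, 2.92 and 0 FPKM in WT. WT replicate 3 was thus at 0 like the KO libraries. Its mean over the 6 libraries, 1.18 FPKM, reached the 1 FPKM needed for testing through WT alone. The limma p, 0.057 before adjustment and 0.9999 after it, is therefore not read as support for a difference. No transcript of either strand lay inside the gene in these 4 libraries. WT replicate 1 held all 7 exons in a transcript of 2082 nt, while WT replicate 2 held 3 exons at the end of the gene and 34.7% of the coding bases. Pigw, which acylates the inositol, was at 2.62, 2.98 and 2.69 FPKM over coding bases in KO and 3.55, 0 and 2.496 FPKM in WT. Here the library at 0 was WT replicate 2, and the other 5 lay together.

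Mannose reaches the growing anchor from dolichol phosphate mannose, made by Dpm1 with its partners Dpm2 and Dpm3 and put to use with the help of Mpdu1. These were among the more abundant members. Dpm3, which tethers the catalytic subunit to the membrane, was at 107, 98.1 and 90.05 FPKM over coding bases in KO and 131, 59.0 and 83.0 FPKM in WT. Mpdu1 was the steadiest of the 4, at 45.8, 43.3 and 45.3 FPKM in KO and 45.1, 44.8 and 37.9 FPKM in WT. In the order Dpm3, Dpm2, Mpdu1 and Dpm1, the range of each over the 6 libraries overlapped that of its neighbour.

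Dpm2 (ENSMUSG00000026810.12, chromosome 2, 32570858 to 32573579, plus strand), the subunit that stabilises the synthase, was high in KO on the gene value. It stood at 33.2, 31.7 and 27.0 FPKM in KO and 17.0, 15.6 and 6.01 FPKM in WT, so that the libraries did not overlap. The difference was 1.30 ± 0.37 on the log2(FPKM + 1) scale, with an unadjusted limma p of 0.0121 and an adjusted p of 0.9999. Over coding bases the same libraries gave 58.3, 55.3 and 44.8 FPKM in KO and 81.1, 63.9 and 23.7 FPKM in WT. There the WT libraries lay on both sides of the KO libraries and the difference was 0.07 ± 0.44 (limma, unadjusted p = 0.87, adjusted p = 1.00). Leaving out WT replicate 3, the lowest library, lowered the gene-value difference to 0.87.

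At Dpm2 the KO and WT libraries also did not overlap in how far the last exon had been assembled. The 4 exons were joined in every library, in transcripts of 833, 825 and 890 nt in KO and 301, 354 and 581 nt in WT. FPKM is counted per length of transcript, and what these unlike lengths do to the coding values was not tested. The assembled end lay 509, 521 and 556 bases past the coding end in KO, against 49 and 58 bases past it in WT replicates 2 and 3 and 23 bases short of it in WT replicate 1. The last exon was therefore assembled over 91.0%, 92.9% and 98.6% of its 621 bases in KO and 5.31%, 16.9% and 18.4% in WT. Of the whole gene, 56.9%, 57.8% and 60.2% was assembled in KO and 19.7%, 24.7% and 25.4% in WT (exact two-sided permutation test, p = 0.1, the smallest that 3 against 3 allows). Dpm2 was the only one of the 30 tested members whose assembled shares did not overlap between genotypes, where 5.93% of all genes tested showed this. In the annotated transcript the hexamer AATAAA, the usual poly(A) signal, occurs once after the coding part and ends 542 bases past it, and ATTAAA does not occur there. The assembled ends of KO replicates 1 and 2, at 509 and 521 bases, stopped before the hexamer. That of KO replicate 3, at 556 bases, ran past it, and the WT ends lay further upstream. Whether the KO or WT ends are ends of the RNA or stops of the assembly was not tested.

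**Figure D3:**
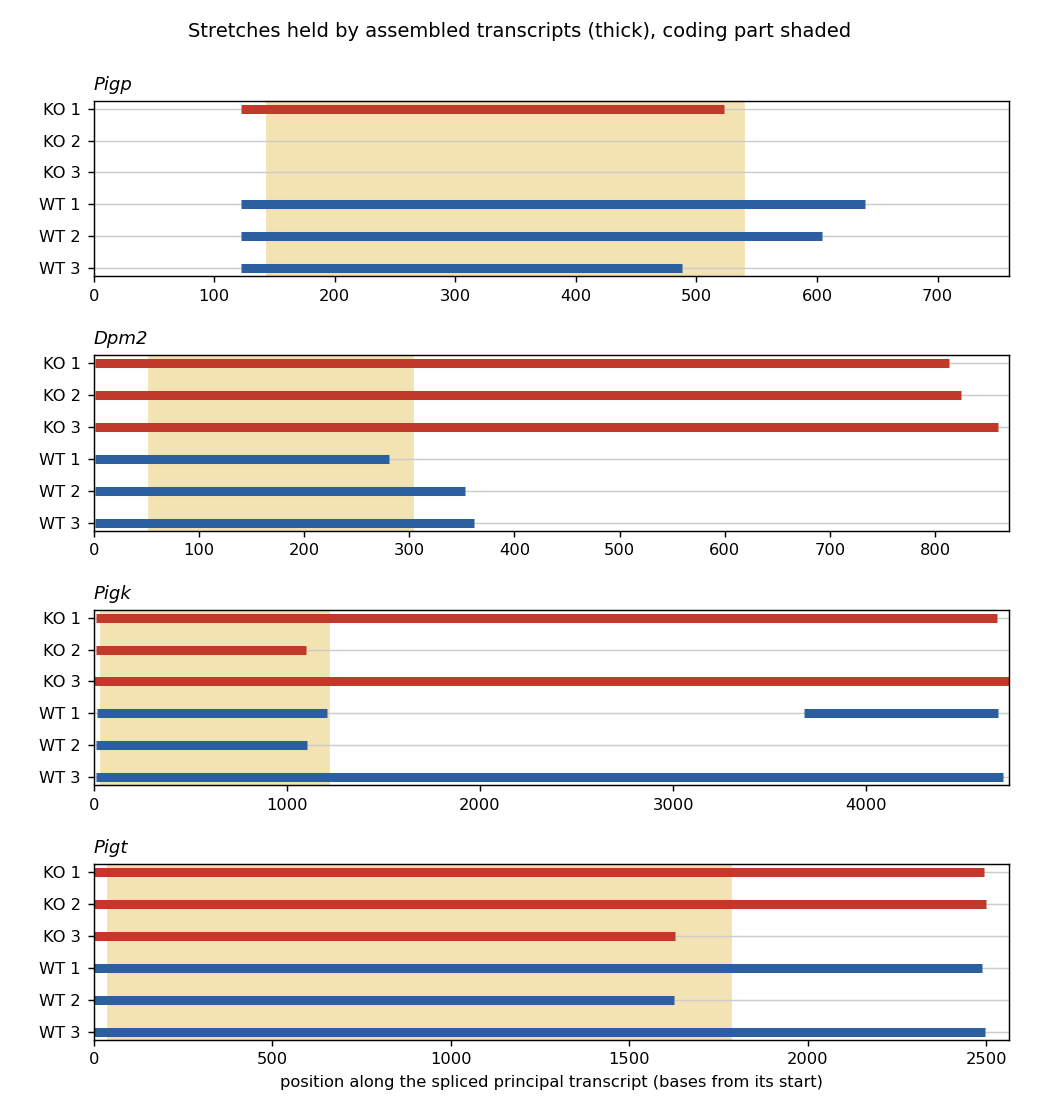
Stretches of the spliced main transcript of Pigp, Dpm2, Pigk and Pigt that assembled transcripts held in each library (thick lines; KO red, WT blue), against bases from the transcript start, with the coding part shaded. The coding part of Dpm2 is held in full in 5 libraries and over 90.9% in WT replicate 1, while its last exon is long in the 3 KO libraries alone, and the short ends of Pigk and Pigt occur in both genotypes.

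Dpm1, the catalytic subunit (ENSMUSG00000078919.10, chromosome 2, 168209048 to 168230591, minus strand), shows the opposite case, in which the gene value misses most of the transcript. Only 1601 of its 2496 exonic bases belong to no other annotated gene, and 0.187% to 36.2% of these were assembled. Its coding value was 28.8, 17.8 and 18.4 FPKM in KO and 40.0, 29.5 and 27.6 FPKM in WT. Each KO library was below the WT library of the same number, though KO replicate 1 lay above WT replicate 3. The coding difference was -0.57 ± 0.23 on the log2(FPKM + 1) scale (limma, unadjusted p = 0.048, adjusted p = 1.00). Blocking on the replicate number gave an unadjusted p of 0.0028 and an adjusted p of 0.847 in limma. In KO replicate 3 and WT replicate 2 the Dpm1 exons were part of transcripts of 5937 and 5553 nt that ran on past the annotated end of the gene. In WT replicate 1 a separate 4-exon transcript of 4538 nt on the same strand, at 20.5 FPKM, also ran past that end.

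The mannosyltransferases add the mannoses in turn: Pigm, with its partner Pigx, adds the first, Pigv the second, Pigb the third and Pigz a side mannose. Pigx, the stabilising partner, was at 20.9, 20.3 and 19.9 FPKM over coding bases in KO and 24.8, 19.4 and 21.6 FPKM in WT. Its range lay above that of Pigm, the catalytic subunit, at 3.57, 4.29 and 7.60 FPKM in KO and 8.16, 3.80 and 4.93 FPKM in WT, and its mean was 3.92 times that of Pigm. Pigb was at 5.40, 3.33 and 5.40 FPKM in KO and 3.97, 5.05 and 4.03 FPKM in WT. Pigv was lower, at 2.78, 1.83 and 2.97 FPKM in KO and 2.91, 1.70 and 1.63 FPKM in WT, and the ranges of Pigb and Pigv did not meet. Pigz, which was too low to be tested, was at 0.302, 0 and 0.489 FPKM in KO and 1.08, 0.474 and 0.483 FPKM in WT. For each of these 5 genes KO and WT overlapped over coding bases.

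Ethanolamine phosphate is placed on the mannoses by Pign, Pigo and Pigg, of which the last 2 work with the shared partner Pigf. Pigf was the highest, at 16.0, 18.7 and 14.3 FPKM over coding bases in KO and 22.3, 16.8 and 22.2 FPKM in WT, above the ranges of the 3 transferases. Pigo, whose group links the anchor to the protein, ranged from 5.38 to 7.56 FPKM. Pign was at 4.16, 4.71 and 5.51 FPKM in KO and 0.900, 4.77 and 5.69 FPKM in WT, and Pigg at 2.26, 3.24 and 3.36 FPKM in KO and 1.43, 2.98 and 4.11 FPKM in WT. In both genes WT replicate 1 was the lowest library, and it was also where only 23.4% and 46.8% of their coding bases were assembled.

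The transamidase that joins anchor and protein has 5 subunits, whose levels were uneven. Pigt, a scaffold subunit (chromosome 2, 164497520 to 164508301, plus strand), was at 87.3, 79.2 and 62.4 FPKM over coding bases in KO and 76.7, 80.6 and 62.5 FPKM in WT. Pigs ranged from 27.7 to 42.8 FPKM, Gpaa1 from 26.6 to 39.4 FPKM and Pigu from 21.3 to 27.8 FPKM, each overlapping the next. Pigk, the protease-like catalytic subunit (chromosome 3, 152714100 to 152980408, plus strand), had the lowest mean, at 4.70, 10.9 and 6.38 FPKM in KO and 12.7, 11.3 and 6.22 FPKM in WT. The range of Pigt lay above all the others and that of Pigk below them. The 2 genotypes overlapped for all 5 subunits.

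Pigk and Pigt also differed in their assembled ends from library to library, in both genotypes. In KO replicate 2 and WT replicate 2 Pigk was a single 10-exon transcript of 1090 and 1094 nt that stopped before the last exon, at 12.1 and 12.5 FPKM. In KO replicates 1 and 3 and WT replicate 3 it was a single 11-exon transcript of 4669, 4806 and 4697 nt, at 4.70, 6.38 and 6.22 FPKM. WT replicate 1 held Pigk in 4 pieces. The FPKM of the short form was above that of the long one in these 5 libraries, whereas the gene value, which averages over the missing last exon too, was lowest with the short form, at 2.69 and 2.80 FPKM against 3.83 to 6.19 FPKM in the other 4. The last exon of Pigt was assembled over 92.9% to 93.9% in 4 libraries and over 9.06% and 8.86% in KO replicate 3 and WT replicate 2. Over gene-specific bases Pigt stood at 37.0 and 47.8 FPKM in these 2 libraries and at 51.9 to 72.5 FPKM in the others.

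After attachment Pgap1 removes the acyl chain from inositol and Mppe1 (also called Pgap5) removes an ethanolamine phosphate, both in the endoplasmic reticulum. Pgap1 was at 7.09, 4.82 and 7.32 FPKM over coding bases in KO and 5.32, 7.17 and 8.80 FPKM in WT. Mppe1, which was not tested, was at 0.793, 0 and 0 FPKM in KO and 4.05, 0 and 0 FPKM in WT. In both genotypes it was thus assembled only in the library numbered 1, with 55.5% and 79.7% of its coding bases. The cargo receptors Tmed2 and Tmed10, which carry GPI-anchored proteins out of the endoplasmic reticulum along with other cargo, were among the most even members. Tmed2 was at 111, 97.5 and 110 FPKM in KO and 109, 105 and 104 FPKM in WT, and Tmed10 at 83.3, 67.2 and 79.4 FPKM in KO and 81.9, 74.4 and 81.9 FPKM in WT. The limma differences were -0.01 ± 0.11 and -0.05 ± 0.13 on the log2(FPKM + 1) scale of coding values.

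In the Golgi Pgap3 removes an unsaturated fatty acid from the anchor and Pgap2 is needed to put a saturated one in its place. Pgap2 was at 0, 7.61 and 9.15 FPKM over coding bases in KO and 10.3, 6.11 and 7.10 FPKM in WT, so that KO replicate 1 alone was listed at 0. No transcript lay inside the gene in that library. Pgap3 was at 2.98, 3.34 and 2.51 FPKM in KO and 4.54, 2.99 and 2.39 FPKM in WT, and its range overlapped that of Pgap2. Arv1, a membrane protein that helps an early step, was at 5.26, 6.08 and 3.09 FPKM in KO and 1.11, 5.88 and 2.49 FPKM in WT. In WT replicate 1, its lowest library, 16.3% of the Arv1 coding bases were assembled. For all these genes the KO and WT libraries overlapped.

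Gaps in assembly occurred in libraries of both genotypes. Of the 30 tested members, 4 were listed at 0 in at least 1 library (Pigp, Pigl, Pigw and Pgap2), where 5.3% of all genes tested were. The number of members at 0, out of 32, was 2, 4 and 3 in the KO libraries and 0, 2 and 2 in the WT libraries. In each same-numbered pair the KO library thus had more members at 0, a difference that was not tested. The share of all genes at 0 in each library was not computed, so a trait of the library and one of the members cannot be told apart. In WT replicate 1 no member was at 0, but 9 members were assembled over less than 80% of their coding bases, against 2 to 5 in the other libraries. Over all gene-specific exonic bases, 19 of 32 members had an assembled share that ranged by more than 20 percentage points over the 6 libraries. Over coding bases, 11 members were held in full in all 6 libraries. A single transcript with every coding intron was found for 23, 20 and 22 members in KO and for 16, 23 and 23 members in WT. In 13 members it was found in all 6 libraries.

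**Figure D4:**
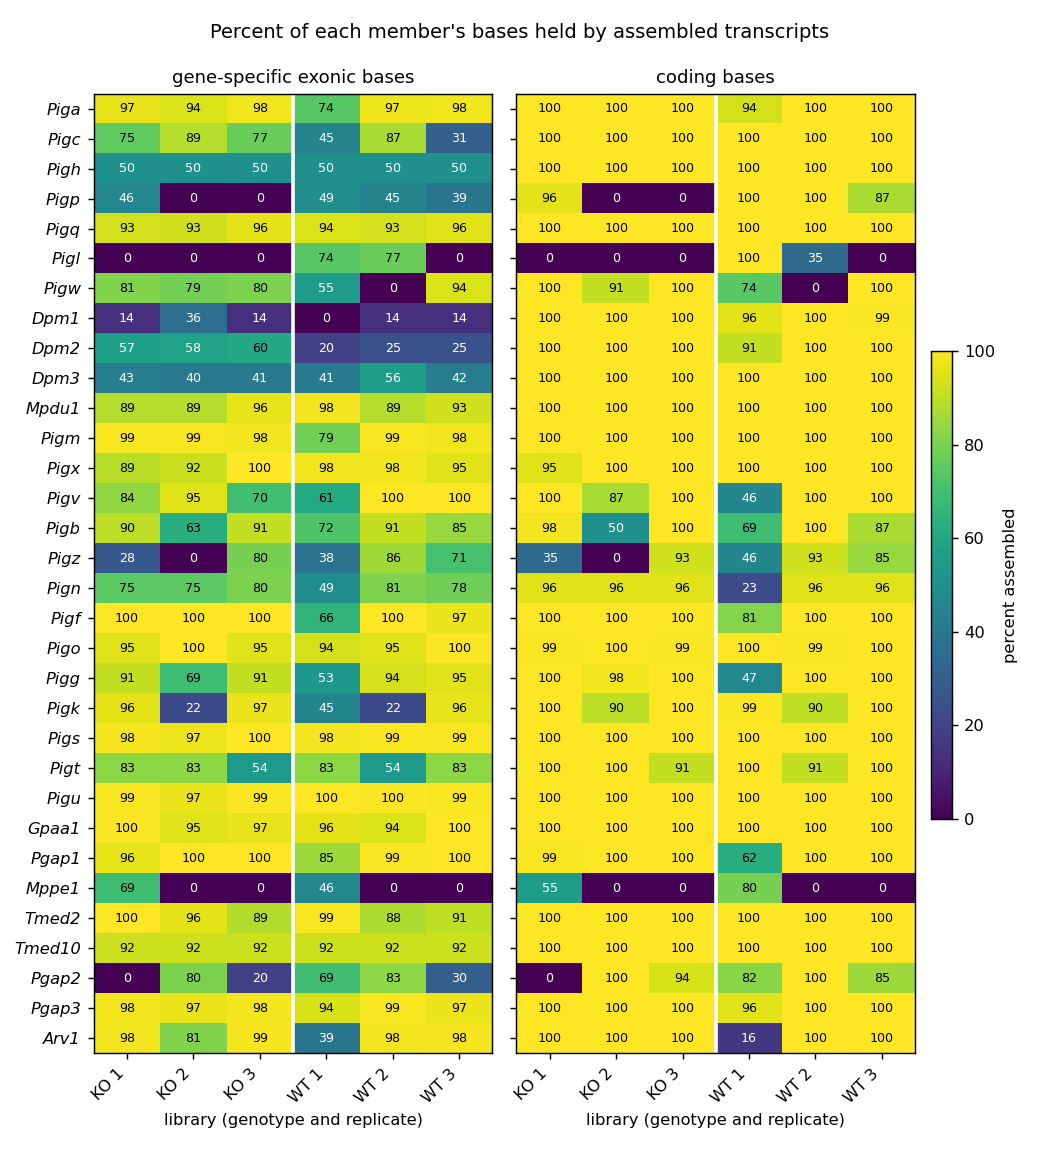
Percent of gene-specific exonic bases (left) and of coding bases (right) held by assembled transcripts, for 32 members in pathway order and 6 libraries. The coding panel is near 100% for most members, WT replicate 1 falls to 16.3% for Arv1 and 23.4% for Pign, and the exonic panel separates the genotypes for Dpm2, at 56.9% to 60.2% in KO and 19.7% to 25.4% in WT.

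Some members were assembled in alternative coding forms. A rule set after the assemblies had been looked at was applied to all members: both splice forms annotated, a coding segment of at most 400 bases, and each form at 10% or more of their joint FPKM in at least 2 libraries. It found 6 alternatives in 5 members. The 5 short segments are shown because they are the bases by which the forms differ; each line runs 5′ to 3′ along the GENCODE transcript (mm10), with the bases the other form lacks in capitals and 20 coding bases on each side.
Mpdu1, 86-base exon, chr11:69657936-69658021, minus strand: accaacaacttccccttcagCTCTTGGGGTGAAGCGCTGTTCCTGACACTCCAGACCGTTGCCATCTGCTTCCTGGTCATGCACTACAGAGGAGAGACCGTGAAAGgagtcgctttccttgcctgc
Pigx, 6 bases at a donor, chr16:32099470-32099475, minus strand: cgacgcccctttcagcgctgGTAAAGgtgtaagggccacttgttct
Pgap2, 12 bases at a donor, chr7:102236543-102236554, plus strand: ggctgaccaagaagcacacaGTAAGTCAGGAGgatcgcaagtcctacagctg
Arv1, 40 bases at an acceptor, chr8:124728329-124728368, plus strand: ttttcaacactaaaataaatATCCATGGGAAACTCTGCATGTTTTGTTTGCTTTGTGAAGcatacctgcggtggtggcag
Arv1, 47 bases at an acceptor, chr8:124730792-124730838, plus strand: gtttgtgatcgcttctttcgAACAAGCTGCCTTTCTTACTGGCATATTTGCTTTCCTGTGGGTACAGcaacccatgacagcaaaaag

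The Pigx and Pgap2 segments, of 6 and 12 bases, keep the reading frame. The 86-base Mpdu1 exon and the 40-base and 47-base Arv1 segments are not multiples of 3. The Pigx form without its 6 bases made up 35.4%, 19.98% and 35.0% of the FPKM in KO and 0%, 27.2% and 33.5% in WT. WT replicate 1 alone lacked it, and the genotypes overlapped. Mpdu1 without its exon made up 37.7%, 32.6% and 20.8% in KO and 0%, 35.3% and 22.98% in WT, again with WT replicate 1 at 0. The Pgap2 form without its 12 bases made up 36.3% and 0% in KO replicates 2 and 3 and 39.0% and 32.3% in WT replicates 2 and 3, and neither form was assembled in the 2 libraries numbered 1.

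Arv1 without the 40 bases made up 0%, 45.4% and 28.9% in KO and 53.9% and 0% in WT replicates 2 and 3. Arv1 without the 47 bases made up 46.4%, 15.3% and 46.6% in KO and 23.9% and 26.4% in the same WT libraries. The sixth alternative was a donor of Piga that leaves out 377 coding bases of its long second exon (chromosome X, 164422987 to 164423363). That form made up 41.4%, 23.6% and 16.2% in KO and 12.99% in WT replicate 2. In WT replicates 1 and 3 it was the only form joined across the intron, but the segment was held there by transcripts of 2.44 and 3.41 FPKM that ended without that junction, so no share can be given. In the 5 other alternatives the KO and WT libraries overlapped; for Piga a single WT library is left for comparison.

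**Figure D5:**
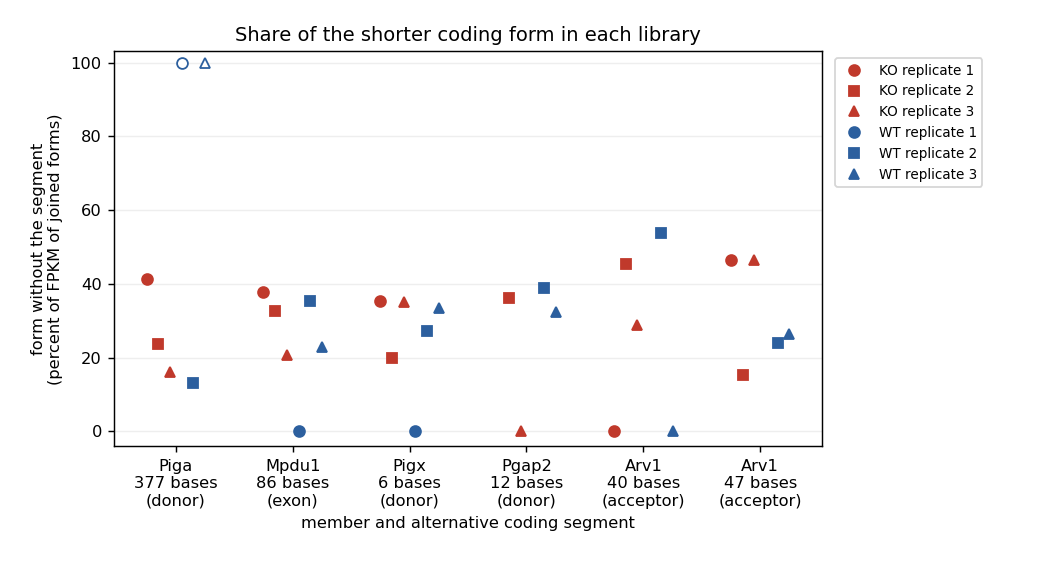
Share of the form without the segment, in percent of the FPKM of both joined forms, for 6 alternative coding segments in 5 members (KO red, WT blue, symbols by replicate number; no point where neither form was assembled; open where the segment was held only by transcripts without the junction). Outside Piga, points of both genotypes mix in each column, and WT replicate 1 is at 0% for Mpdu1 and Pigx. For Piga the open points of WT replicates 1 and 3 give no share of the form.

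Genes around the pathway were read in 3 context lists. Of 21 symbols for other GPI genes, such as the export coat and further cargo receptors, some of them second names of listed genes, 18 were matched and 17 tested, and 0 were higher and 0 lower at the limma threshold or at an unadjusted p under 0.05, with a median of -0.07. The smallest unadjusted p in it was that of Tmem8, a GPI-cleaving phospholipase also called Pgap6, at 1.56, 1.46 and 1.71 FPKM in KO and 0.775, 1.18 and 1.25 FPKM in WT (limma, unadjusted p = 0.108, adjusted p = 0.9999). Its libraries did not overlap. Sec24c, a coat subunit, followed with 21.2 ± 3.82 against 28.03 ± 5.91 FPKM (SD, n = 3 each), and Sar1b, the coat's small GTPase, with 36.8 ± 9.17 against 46.5 ± 7.59 FPKM.

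Of 22 genes that supply or use dolichol phosphate mannose outside the anchor, 22 were tested and 0 passed limma in either direction, 1 had an unadjusted p under 0.05, and the median was 0.01. Pmm2, which makes the mannose 1-phosphate that feeds the donor, was at 14.9, 13.95 and 16.2 FPKM in KO and 13.6, 7.30 and 7.39 FPKM in WT. Its libraries did not overlap, and its difference of 0.67 ± 0.24 had an unadjusted limma p of 0.031 and an adjusted p of 0.9999. The mannosyltransferases Alg12 (4.77 ± 0.767 against 3.51 ± 0.628 FPKM) and Alg9 (12.4 ± 0.779 against 10.6 ± 2.73 FPKM) came next, and the libraries of Alg12 did not overlap either. Of 18 genes that assemble N-glycans without that donor, 0 of 18 passed limma or had an unadjusted p under 0.05, with a median of -0.08. Dpagt1, which starts the N-glycan precursor, was at 18.3, 13.6 and 8.89 FPKM in KO and 13.5, 48.8 and 46.0 FPKM in WT. WT replicate 1 lay with the KO libraries there. Alg11 (5.06 ± 1.90 against 6.59 ± 1.06 FPKM) and Alg10b (14.6 ± 0.993 against 16.5 ± 2.31 FPKM) had the next smallest unadjusted p.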

How the data were processed

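RNA-seq of cultured OPCs gave 3 KO and 3 WT libraries. The authors deposited 1 transcript assembly per library, whose transcript lines carry an FPKM in their text column. The submitters' processing notes name mm10 as the build and, as tools, Cufflinks and Cuffdiff (both 2.2.1), TopHat2 (2.1.1) and FastQC. Other values held in that deposited text column (coverage and confidence limits) were used only for relative depth. From these files, FPKM of transcripts of at least 300 nt on a gene's strand or without strand was summed at each base and averaged over at least 200 gene-specific exonic bases (GENCODE M21), or over coding bases of the main transcript, a measure added after the assemblies had been seen. Genes with a mean of at least 1 FPKM entered limma 3.58.1 as log2(FPKM + 1) (R 4.3.3; trend, two-sided, Benjamini-Hochberg over all genes). A fold on this scale understates changes of low genes. On simulated data with 12048 genes, KO against WT, the test recovered 44% of the changes that were 1 log2 unit in size and 82% of those of 2 units, over 200 changed genes, with 10 false calls.

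KO and WT libraries of the same number moved together around their genotype means (r across genes 0.369, 0.197 and 0.293 for numbers 1 to 3, -0.277 to 0.0233 for other pairs). The reported limma fit nevertheless used genotype only and left this pairing out. A fit with the replicate number as a block was run as an alternative. The members and lists were chosen with earlier results of these data known. Named genes are all members, and the 3 of each context list with the smallest p. The p-values adjusted over the members alone that had been planned for assembled shares are not given. Alternatives covered pseudocounts, filters, the block, scaling, other gene values and left-out libraries. Tables used Python 3.11.15.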

Additional observations from a re-analysis of the deposited data

How the results depend on the processing

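Members called by limma numbered 0 under all alternatives of the fit except without KO replicate 1 and without both libraries numbered 1, where it was 1 (Pigp); leaving out single libraries gave 0 to 1. The median difference over members stayed within 1 SD (0.0885) of its value except for the sum of FPKM over transcripts, where it was -0.39 while the median of all genes moved to -0.25. The count over all genes, 1 in the reported fit, was 0 with pseudocounts of 0.1 or 5, a minimum mean of 5 FPKM, summed FPKM, the replicate block, and coding bases with the replicate block. It was 2 over assembled bases only, 27 without both libraries numbered 1, and 1 to 17 when leaving out single libraries, the highest without KO replicate 1. The replicate block changed no other call. Members with assembled shares that did not overlap numbered 1, where 5.93% of all genes tested showed this. They numbered 0 over coding bases, and 2 to 5 without single libraries, Dpm2 among them each time. Libraries separate more easily when 1 is left out, and the share over all genes was not computed there. The higher counts are thus not read as a result about the members. No context list gained a call under any alternative, and no alternative turned the sign of Pigp or Dpm2. Pigp ran from -4.59 with a pseudocount of 0.1 to -1.13 with 5. The cause of these shifts was not tested. Depth is known only as a ratio, so no limit for a listed 0 can be given.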
